A study of Mus musculus with 6 samples.

Results

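The cytosolic ribosomal protein genes of the mouse kidney were followed in 6 libraries, of which 3 were wild-type and 3 Hspa8 knockout. Members were all rows of the deposited expression table whose symbol has the form Rpl or Rps with a number (and the suffixes a, x, y or l), together with Rplp0, Rplp1, Rplp2 and Rpsa. This gave 84 of 34714 genes, 52 of the large and 32 of the small subunit. The rule goes by names and uses no measured value, although the family was picked with earlier results of these data known.

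Ribosomal proteins assemble with ribosomal RNA in the nucleolus into a large subunit, which joins amino acids, and a small subunit, which reads the mRNA. Their mRNAs typically carry a terminal oligopyrimidine tract (TOP), a run of C and T at the very 5′ end that places their translation under mTOR and LARP1, so that cells can make the many proteins of the particle in step. HSC70, the product of Hspa8, binds nascent chains at the ribosome with the help of factors such as DNAJC2.

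All mice were 8 weeks old and ate normal chow. The wild-type group is named by its genotype and by the C57 strain in its titles. For the knockout group the labels give only the genotype Hspa8 knockout. The animals obtained for the study included a line with a floxed Hspa8 allele on C57BL/6J and Cdh16-Cre mice, whose Cre is driven by a promoter of kidney tubule epithelium, but the labels do not say which cross the sequenced kidneys came from, so Cre, the floxed allele and the background cannot be told apart from the loss of Hspa8. Endothelial, immune and other cells outside the tubules would keep the gene under that Cre. The unit is FPKM, which divides the fragments of a gene by its transcript length and by the library's mapped total, and it describes mRNA, not ribosomes or translation. In whole kidney, fewer cells of a type and less RNA per cell cannot be told apart.

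The libraries summed to between 381586 and 417123 FPKM and listed between 20715 and 21277 genes above 0, while read depth is unknown. Hspa8 itself was lower in all 3 knockout libraries, at 650.1, 699 and 781 FPKM where the wild-type kidneys had 1058, 1092 and 1318, with a log2 fold change of -0.70 (SE, the standard error, 0.122) and a limma adjusted p of 0.866. An exact two-sided permutation test gave 0.1, the smallest p that 3 against 3 can give. Proximal tubule markers were present in every library, 10 of 10 above the filter.

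The sequence around the annotated start, where the TOP of an mRNA lies, is shown first, and its part in the mRNA levels was not tested. RefSeq's promoter table of GRCm38.p6 held an entry for 61 of the 81 tested members, and the first entry of each gene was used. Each sequence below runs 5′ to 3′ on the gene's strand from 30 bases before to 20 bases after the first annotated base and so holds at most 20 bases of transcript. Capitals mark a run of at least 8 bases that are each C or T and that reaches within 25 bases of the start. The first 8 carry such a run and the last 4, among them members discussed further on, do not.
Rpl18 (chr7:45718041-45718090, plus strand): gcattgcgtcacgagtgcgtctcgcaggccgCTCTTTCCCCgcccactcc
Rps6 (chr4:86857348-86857397, minus strand): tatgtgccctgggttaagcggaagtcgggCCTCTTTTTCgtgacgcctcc
Rpl38 (chr11:114668550-114668599, plus strand): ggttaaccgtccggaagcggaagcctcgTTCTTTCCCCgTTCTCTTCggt
Rps27 (chr3:90213629-90213678, minus strand): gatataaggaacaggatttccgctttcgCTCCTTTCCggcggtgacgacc
Rps18 (chr17:33955646-33955695, minus strand): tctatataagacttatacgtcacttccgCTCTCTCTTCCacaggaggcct
Rplp2 (chr7:141447621-141447670, plus strand): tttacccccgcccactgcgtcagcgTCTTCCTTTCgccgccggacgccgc
Rpl7a (chr2:26910777-26910826, plus strand): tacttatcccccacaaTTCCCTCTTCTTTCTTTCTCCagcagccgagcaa
Rpl4 (chr9:64173357-64173406, plus strand): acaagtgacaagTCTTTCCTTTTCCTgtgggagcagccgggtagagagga
Rpl10 (chrX:74270786-74270835, plus strand): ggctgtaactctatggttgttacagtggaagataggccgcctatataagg
Rps28 (chr17:33824543-33824592, minus strand): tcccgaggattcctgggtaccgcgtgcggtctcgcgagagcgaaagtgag
Rplp0 (chr5:115559437-115559486, plus strand): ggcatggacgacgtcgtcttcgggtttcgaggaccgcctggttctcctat
Rps4x (chrX:102189372-102189421, minus strand): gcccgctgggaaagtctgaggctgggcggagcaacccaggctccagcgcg

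In this set the run begins at or within a few bases of the annotated start in Rpl18, Rps6, Rpl38, Rps27, Rps18 and Rplp2 and ahead of it in Rpl7a and Rpl4. Such a run near the start was found in 34 of 61 members (55.7%), against 24.0% of the 27025 promoters of the table, and on the opposite strand in 12 of 61 (19.7%) against 26.7%. By subunit it was found in 21 of 37 large and 13 of 24 small subunit members. The letters CCGGAAG, searched on both strands over the 300 bases of each entry and partly able to overlap a C and T run through the CTTCC of their reverse complement, were found in 24 of 61 members (39.3%) against 9.12% of all promoters. A missing run says only that these letters are not near the annotated start, which may not be the start used in kidney. Between genotypes the members with a run had a median log2 fold change of -0.06 and those without one -0.07, and the fold between the highest and the lowest library had a median of 1.40 and 1.41.

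Of the 84 members 81 had a mean of at least 1 FPKM and were tested. The other 3 were Rpl10l and Rpl39l, listed at 0 in every library, and Rpl32l, at 0.117 to 0.546 FPKM. Rpl10l and Rpl39l are copies known for their expression in testis, and Rpl32l is a processed pseudogene in GENCODE M21 but protein-coding in RefSeq. Every tested member was at 1.90 FPKM or more in every library, so none entered through 1 group alone.

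The ribosomal protein genes took 3.41%, 3.76% and 4.28% of all summed FPKM in the wild-type libraries, replicates 1, 2 and 3, and 3.71%, 4.04% and 3.46% in knockout replicates 1, 2 and 3. Both the highest and the lowest library were wild-type, and the knockout values lay inside the wild-type range. The mean share was 3.82% ± 0.437 (SD, n = 3) in wild-type and 3.74% ± 0.293 (SD, n = 3) in knockout kidney, and the difference of -0.0808 percentage points was smaller than the spread within either group. Leaving out 1 library at a time moved it between -0.284 without wild-type replicate 1 and 0.15 without wild-type replicate 3. With knockout replicate 2 left out it was -0.235 and with knockout replicate 3 left out 0.0576.

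Most members followed 1 pattern across the libraries, and that pattern did not follow the genotype. On the log2(FPKM + 1) scale the median distance of the 49 large subunit members from their own means was -0.14, 0.00 and 0.24 in wild-type replicates 1, 2 and 3 and -0.06, 0.15 and -0.20 in knockout replicates 1, 2 and 3. For the 32 small subunit members it was -0.13, -0.0047 and 0.23 in wild-type and -0.04, 0.15 and -0.18 in knockout kidney. Both subunits were therefore highest in wild-type replicate 3, next highest in knockout replicate 2, and lowest in knockout replicate 3 and wild-type replicate 1, and they differed from each other by -0.023 to 0.0112 in any library. The summed FPKM of the large subunit was 1.32, 1.38 and 1.38 times that of the small in wild-type and 1.35, 1.35 and 1.34 times in knockout kidney.

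**Figure D1:**
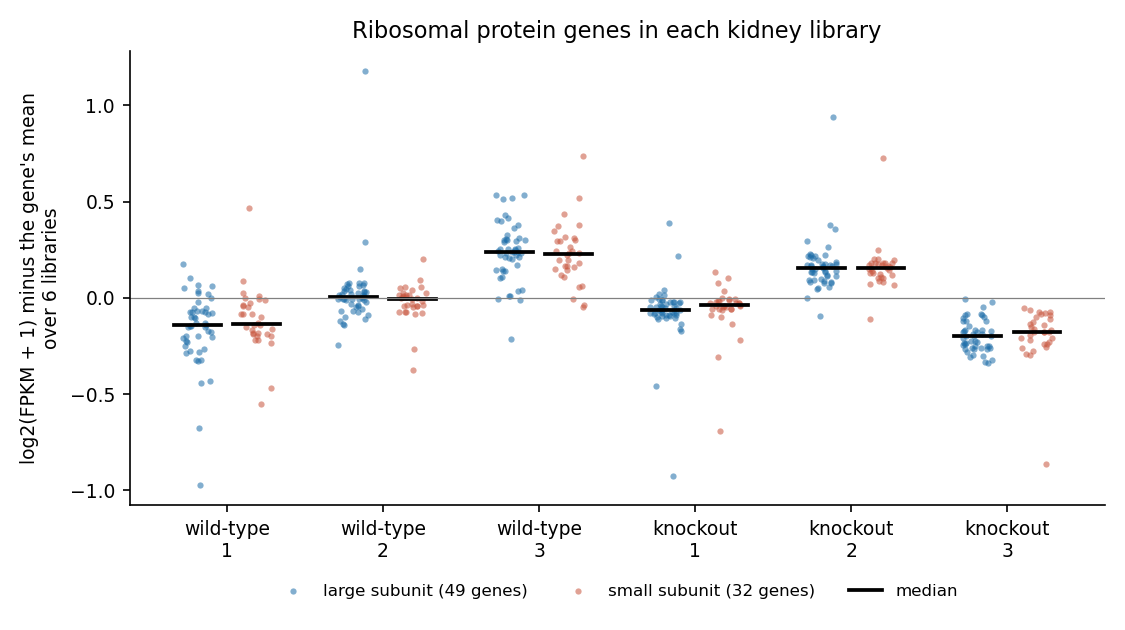
Each point is 1 of the 81 tested ribosomal protein genes in 1 library, as its log2(FPKM + 1) minus its own mean over the 6 libraries. Black bars are medians, and the large and small subunit medians lie together in every library, highest in wild-type replicate 3 and lowest in knockout replicate 3.

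Wild-type replicate 3 gave the highest value for 59 of the 81 members and knockout replicate 2 for 15, while knockout replicate 3 gave the lowest for 53 and wild-type replicate 1 for 21. None of the 81 lay above its own mean in knockout replicate 3. As a description over 6 libraries, the pattern of a member had a median Pearson correlation of 0.942 with the median pattern of the others, with 60 of 81 members above 0.8. All members share the same 6 libraries and their scaling, so these are not independent observations. Below 0.5 were 8 members, Rpl7l1, Rps4x, Rps3, Rpl9, Rpl3l, Rpl17, Rpl3 and Rpl18.

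Between genotypes 0 of 81 members passed limma's test in either direction at an adjusted p of 0.05, against 0% of the 12174 genes tested. At an unadjusted p under 0.05 there was 1 member, Rpl18, against 5.17% of all genes (4.21% lower and 0.953% higher in the knockout), and the robust variance model gave the same 0 and 1. The log2 fold change was below 0 for 68 tested members and above 0 for 13, with a median of -0.07, a fold of 0.954, and of all tested genes 64.9% lay below 0 with a median of -0.04. The large subunit had 41 of 49 below 0 and a median of -0.08, and the small subunit 27 of 32 and a median of -0.06. The lean of the family below 0 depended on scaling and on single libraries: 52 of 81 lay below 0 with library sums equalised and 47 with library medians equalised, and the median turned to 0.02 without wild-type replicate 3 or without knockout replicate 3 and reached -0.15 without knockout replicate 2 and -0.14 without wild-type replicate 1.

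The interval of each fold change gives a range around its estimate, not the size of change that the test adjusted over all genes could call. Hspa8 itself, at a log2 fold change of -0.70, was not called. For 68 of the 81 members the 95% interval, unadjusted for the number of genes, lay within 0.5 of 0 on the log2 scale, and for 78 within 1. Over all 12174 tested genes this held for 10149 and 12030. Among the members the median distance from the estimate to its bound was 0.31. The exceptions to the wider limit were Rpl17, Rps27a and Rpl7a, described further on.

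**Figure D2:**
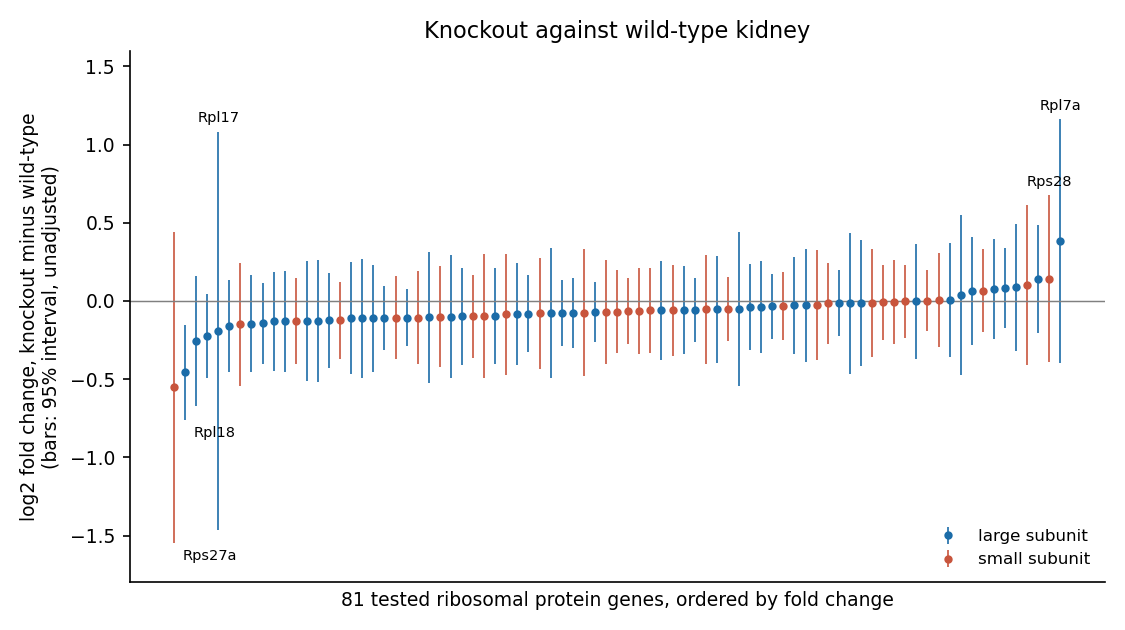
Log2 fold change (knockout minus wild-type) of the 81 tested members, ordered by size, with unadjusted 95% intervals from limma. The interval of Rpl18 alone leaves out 0, and the widest belong to Rpl17, Rps27a and Rpl7a.

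Among the large subunit members Rpl18 had the smallest p. Rpl18 (chromosome 7, 45715467 to 45720835 in GRCm38.p6), whose promoter is printed above, gave, in order of replicate, 175, 189.8 and 181 in the wild-type kidneys against 113, 161 and 127 FPKM in the knockout kidneys, so that every knockout library lay below every wild-type library. The groups lay apart in the lower direction for 2 members, against 8.57% of all tested genes. Wild-type kidneys averaged 182 ± 7.24 FPKM (SD, n = 3) and knockout kidneys 134 ± 24.9 FPKM (SD, n = 3), which gave a log2 fold change of -0.46 (SE 0.133) and a limma adjusted p of 0.866. It ranked 117 of the 12174 genes by p and did not pass. Its annotated span overlaps that of Sphk2, a sphingosine kinase gene on the opposite strand. The promoter sequence printed above begins at 45718041, past the end of Sphk2 at 45718002, so only the part of the span ahead of that start overlaps. How the authors treated strand is not given in the sources. Sphk2 was between 10.7 and 11.3 FPKM in wild-type and between 11.6 and 13.5 FPKM in knockout libraries.

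Rpl7l1, a paralogue of Rpl7 that acts in ribosome assembly, was the other member whose groups lay apart. It had 28.1, 26.8 and 26.2 in the wild-type kidneys against 24.1, 26.0 and 25.1 FPKM in the knockout kidneys, a log2 fold change of -0.11 (SE 0.0787, limma adjusted p = 0.998). Its gap between the groups was small, since the lowest wild-type value was 26.2 and the highest knockout value 26.0 FPKM. Rpl10, the X-linked gene of a protein that is among the last to join the large subunit, had 345, 353 and 396 in the wild-type kidneys against 319, 349 and 271 FPKM in the knockout kidneys. Knockout replicate 2 lay inside the wild-type range, and the log2 fold change came to -0.22 (SE 0.117, limma adjusted p = 0.973).

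Rpl29, a small basic protein of the large subunit, had 91.6, 91.8 and 138 in the wild-type kidneys against 85.1, 104 and 76.7 FPKM in the knockout kidneys. Wild-type replicate 3 stood alone at the top, the other 5 libraries lay between 76.7 and 104 FPKM, and the log2 fold change came to -0.26 (SE 0.181). Rpl10a, which lies at the stalk through which tRNA leaves, had 115, 114 and 134 in the wild-type kidneys against 108, 122.9 and 98.4 FPKM in the knockout kidneys. Rpl6 had 225, 246 and 281 in the wild-type kidneys against 218, 257 and 198 FPKM in the knockout kidneys. For both, knockout replicate 2 lay inside the wild-type range and the other 2 knockout libraries below it, with log2 fold changes of -0.14 for Rpl10a and -0.16 for Rpl6 and SEs of 0.113 and 0.127. The limma adjusted p of Rpl29, Rpl10a and Rpl6 was 0.998 each.

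In the small subunit no member reached an unadjusted p of 0.05, and the 6 with the smallest p were Rps27a, Rps13, Rps27, Rps6, Rps18 and Rps14. Rps6, the target of the S6 kinases downstream of mTOR, had 186, 181 and 214 in the wild-type kidneys against 169, 205 and 167 FPKM in the knockout kidneys. The highest value was in wild-type replicate 3 and the second highest in knockout replicate 2, so the groups overlapped, with a log2 fold change of -0.11 (SE 0.115). Rps13 had 135, 141 and 151 in the wild-type kidneys against 117, 147 and 129.5 FPKM in the knockout kidneys. Rps18, near the head of the small subunit, had 117, 155 and 158 in the wild-type kidneys against 109, 160.4 and 119.8 FPKM in the knockout kidneys. Both were lowest in knockout replicate 1, and knockout replicate 2 lay inside the wild-type range for Rps13 and above it for Rps18, with log2 fold changes of -0.12 for Rps13 and -0.15 for Rps18 and SEs of 0.107 and 0.171.

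Rps27, which has a zinc finger, had 140.2, 159 and 189.7 in the wild-type kidneys against 154, 143 and 146 FPKM in the knockout kidneys. Rps14, which lies on the platform and is lost in the human 5q- syndrome, had 285, 295 and 333 in the wild-type kidneys against 280.4, 321 and 254 FPKM in the knockout kidneys. Their log2 fold changes were -0.13 for Rps27 and -0.10 for Rps14, with SEs of 0.119 and 0.116 and overlapping groups. The limma adjusted p was 0.998 for each of these 6 members. Rpsa, also known as the laminin receptor and mutated in isolated congenital asplenia, had 179, 178 and 218 in the wild-type kidneys against 178, 203 and 154 FPKM in the knockout kidneys. The log2 fold change was -0.11 (limma adjusted p = 0.998).

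The P stalk, through which the ribosome recruits the GTPase elongation factors, is made of the proteins of Rplp0, Rplp1 and Rplp2. Rplp0, its base, had 313, 313 and 311 in the wild-type kidneys against 304, 328 and 283 FPKM in the knockout kidneys. Rplp1 had 325, 344 and 432 in the wild-type kidneys against 358, 398 and 319.9 FPKM in the knockout kidneys. Rplp2 had 163, 186 and 211 in the wild-type kidneys against 193, 209 and 188 FPKM in the knockout kidneys. The base was among the steadiest members, with 1.16-fold between its highest and lowest library, while Rplp1 and Rplp2 spanned 1.35-fold and 1.29-fold with wild-type replicate 3 on top. The log2 fold changes were -0.04, -0.03 and 0.08, with SEs of 0.0906, 0.135 and 0.112, and the signs of all 3 changed under at least 1 alternative.

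Rpl5 and Rpl11, which with 5S ribosomal RNA form the particle that binds MDM2 and so frees p53 when ribosome assembly stalls, showed different spreads. Rpl5 had 139, 142 and 138 in the wild-type kidneys against 122, 142 and 125 FPKM in the knockout kidneys. Rpl11 had 117, 138 and 185 in the wild-type kidneys against 136, 168 and 127 FPKM in the knockout kidneys. Rpl5 moved by 1.16-fold over the 6 libraries and Rpl11 by 1.57-fold, with wild-type replicate 1 lowest and wild-type replicate 3 highest for Rpl11. Mdm2 had 20.3, 19.5 and 20.3 in the wild-type kidneys against 15.7, 17.2 and 18.1 FPKM in the knockout kidneys. Its groups lay apart in the lower direction, as for 8.57% of all tested genes, with a log2 fold change of -0.22 (SE 0.0841) and a limma adjusted p of 0.941. Trp53, the gene of p53, had 14.8, 17.1 and 18.9 in the wild-type kidneys against 14.7, 14.99 and 13.2 FPKM in the knockout kidneys, which overlapped (log2 fold change -0.22, SE 0.107, limma adjusted p = 0.973).

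Genes mutated in Diamond-Blackfan anaemia, an inherited failure of red cell production, had log2 fold changes on both sides of 0. Rps19, the gene most often mutated, had 257, 302 and 314 in the wild-type kidneys against 279, 309 and 248 FPKM in the knockout kidneys. Its knockout values lay inside or just below the wild-type range, with the lowest in knockout replicate 3. Rpl35a, Rps7, Rps10, Rps24 and Rps26 spanned 1.40-fold, 1.26-fold, 1.31-fold, 1.29-fold and 1.32-fold over the libraries, and their log2 fold changes ran from -0.06 to -0.01. Their limma adjusted p was 0.998 each, as it was for Rps19. Other members linked to the disease lay further out, Rpl5 at -0.11, Rps27 at -0.13, Rps29 at 0.10, Rps28 at 0.14 and Rpl18 at -0.46 on the log2 scale, and none of them passed.

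Levels of the members differed widely although the assembled particle carries nearly all of these proteins at equal number. FPKM are divided by length, but the length used and the handling of reads shared between copies are not given. Levels of different members can therefore be compared only roughly, and they do not measure protein. The mean over 6 libraries ran from 2.37 to 527 FPKM, with a median of 162 FPKM and quartiles of 117 and 263 FPKM. The median over all tested genes was 8.61 FPKM. Above 100 FPKM lay 69 of the 81 members. The medians were 155 FPKM for the large and 186 FPKM for the small subunit. At the top stood Rps2, on the small subunit near the entry of the mRNA channel, with 529.5, 526 and 524 in the wild-type kidneys against 517, 588 and 477 FPKM in the knockout kidneys. It was followed by Rpl41 and Rplp1, with means of 377 and 363 FPKM.

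At the bottom stood Rpl3l, the muscle paralogue of Rpl3, at 1.90 to 2.89 FPKM, while Rpl3 itself, which shapes the peptidyl transferase centre, lay at 192 to 221 FPKM. Next came 3 ordinary subunit genes, Rpl21 at 8.68 to 13.9 FPKM, Rps15a at 12.7 to 16.5 FPKM and Rps20 at 21.3 to 31.1 FPKM. In GENCODE M21 the longest transcripts of Rps15a and Rps20 have 5179 and 3706 bases, among the 4 longest of the tested members, and that of Rpl21 has 1856 bases, while Rps24 and Rps3, with 4059 and 3183 bases, had means of 114 and 147 FPKM. The length by which the authors divided is not given in the sources, and its part in these low levels was not tested. Over the members the longest annotated transcript and the mean FPKM had a Spearman rho of -0.298 (81 genes, a description across genes).

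Members with a second copy were set side by side. Rpl22 lay at 39.1 to 48.1 FPKM and its paralogue Rpl22l1 at 56.6 to 78.8 FPKM, above Rpl22 in each of the 6 libraries. Rps27 lay at 140.2 to 189.7 FPKM and Rps27l, a paralogue induced by p53, at 134 to 195 FPKM, with no steady order between them. Rps4x, the X-linked copy, lay at 209 to 239 FPKM, and Rps4l has no row under this rule. Ribosomal protein genes have many near-identical processed pseudogenes, and reads can be split between a gene and such copies, which makes the level of any single member uncertain. The 3 rows of the table named as ribosomal protein pseudogenes summed to between 47.5 and 76.6 FPKM per library, with the highest sum in wild-type replicate 3.

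By class, members with short coding sequences varied more between libraries than long ones. Coding length was taken as the longest coding sequence in GENCODE M21 and was found for all 81 tested members. The fold between the highest and lowest library had a median of 1.54 in the 9 members under 300 bases, 1.45 in 38 members of 300 to under 500 bases, 1.31 in 25 members of 500 to under 800 bases and 1.23 in 9 members of 800 bases and over. Other tested genes of the same length classes had medians of 1.45, 1.36, 1.33 and 1.33. Coding length and the SD over libraries had a Spearman rho of -0.438 over the 81 members, a description across genes that share the 6 libraries.

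Rps28, Rps29 and Rpl38, proteins of the shortest kind, came next in spread after Rpl17, Rps27a and Rpl7a, which are described further on. Rps28 had 82.0, 94.6 and 164 in the wild-type kidneys against 125, 128 and 107 FPKM in the knockout kidneys. Rps29, which has a zinc finger, had 101, 144 and 202 in the wild-type kidneys against 159, 167 and 138 FPKM in the knockout kidneys. Rpl38, known from the tail-short mouse, had 82.7, 102 and 164 in the wild-type kidneys against 116, 124 and 104 FPKM in the knockout kidneys. In each of the 3 the lowest and the highest library were both wild-type, replicates 1 and 3, nearly 2-fold apart at 2.00, 1.99 and 1.98. Rpl24 and Rpl13a, of intermediate length, spanned 1.42-fold and 1.42-fold. Rpl39, Rpl36 and Rpl41 followed the same order of extremes with 1.76-fold, 1.79-fold and 1.48-fold. Not all short members varied as much, since Rps21, Rpl37a and Rps27, each under 300 bases, spanned 1.30-fold, 1.32-fold and 1.35-fold.

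Rps3 and Rpl4 were among the 14 steadiest members. Rps3, which also has a role in DNA repair, had 146, 153 and 142 in the wild-type kidneys against 144, 156 and 142 FPKM in the knockout kidneys, a span of 1.10-fold and the smallest of the family. Rpl4, a protein that lines the exit tunnel, had 314, 321 and 327 in the wild-type kidneys against 309, 345 and 299 FPKM in the knockout kidneys. For Rpl4 the log2 fold change was -0.02 with a 95% interval of -0.23 to 0.19, and for Rps3 it was 0.00 with an interval of -0.19 to 0.20. That group of 14 also held Rpl3, Rpl5, Rpl7l1, Rpl8, Rpl9, Rpl15, Rpl22, Rplp0, Rps2, Rps3a1, Rps4x and Rps9. Rpl22 was steady at 1.23-fold although its coding sequence has only 384 bases.

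**Figure D3:**
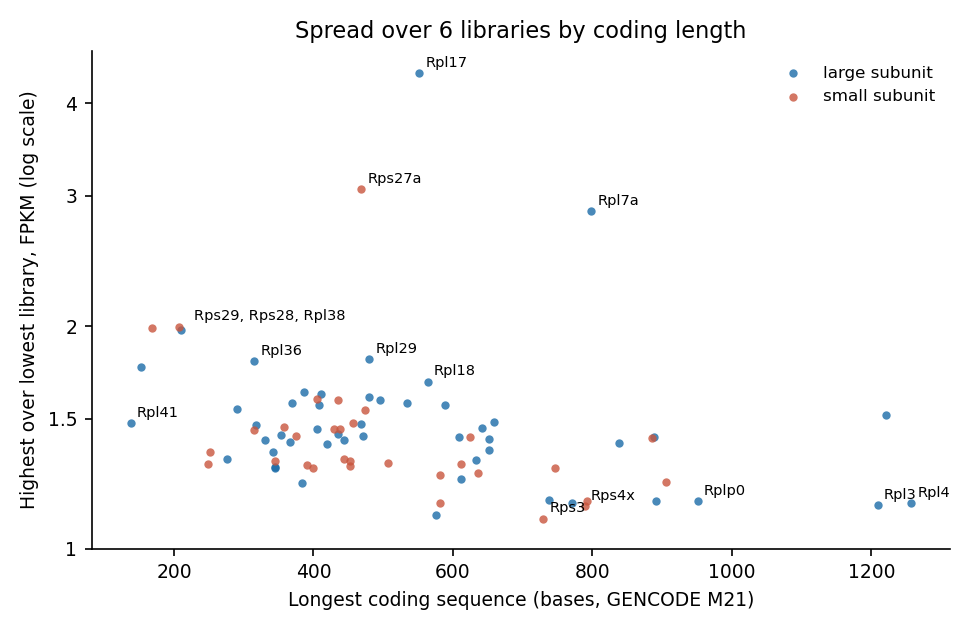
Highest over lowest library (FPKM, log axis) against the longest coding sequence for the 81 tested members. Rpl17, Rps27a and Rpl7a exceed 2-fold, short members such as Rps28, Rps29 and Rpl38 lie near 2-fold, and Rps3 and Rpl4 lie at 1.10-fold and 1.15-fold.

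With the trend on coding length removed in each library, the median log2 fold change of the members was -0.01 and 48 of 81 lay below 0. By class the median log2 fold change without that step was 0.06 in the members under 300 bases, -0.08 in those of 300 to under 500 bases, -0.08 in those of 500 to under 800 bases and -0.06 in those of 800 bases and over. No class held a member that passed.

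Rpl17, Rps27a and Rpl7a stood out by the size of their spread, as the only tested members with more than 2-fold between libraries. Their correlations with the median pattern of the other members were 0.400, 0.687 and 0.708, with only Rpl17 below 0.5. Rpl17, a protein of the exit tunnel, had 37.8, 139 and 52.4 in the wild-type kidneys against 31.6, 118 and 49.2 FPKM in the knockout kidneys. It was high in replicate 2 of either genotype and low in the other 4 libraries. Rps27a (chromosome 11, 29545842 to 29548040), which encodes ubiquitin fused to a small subunit protein, had 158, 87.9 and 191 in the wild-type kidneys against 70.3, 190.0 and 62.5 FPKM in the knockout kidneys. Wild-type replicates 1 and 3 and knockout replicate 2 stood at 158 FPKM or more and the other 3 libraries at 87.9 FPKM or less, with no library between.

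Rpl7a (chromosome 2, 26910685 to 26913312), a host gene of small nucleolar RNAs, had 64.4, 115 and 184 in the wild-type kidneys against 167, 163 and 113 FPKM in the knockout kidneys. Wild-type replicate 1 was lowest and wild-type replicate 3 highest, and the 3 knockout values lay inside the wild-type range. The log2 fold changes of Rpl17, Rps27a and Rpl7a were -0.19, -0.55 and 0.38, with 95% intervals of -1.47 to 1.08, -1.55 to 0.44 and -0.40 to 1.16 and a limma adjusted p of 0.998 each. These 3 were singled out after their values were seen, and whether the reads were assigned differently between transcripts or pseudogene copies in these libraries was not tested. Without them the median log2 fold change of the remaining 78 members stayed at -0.07.

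**Figure D4:**
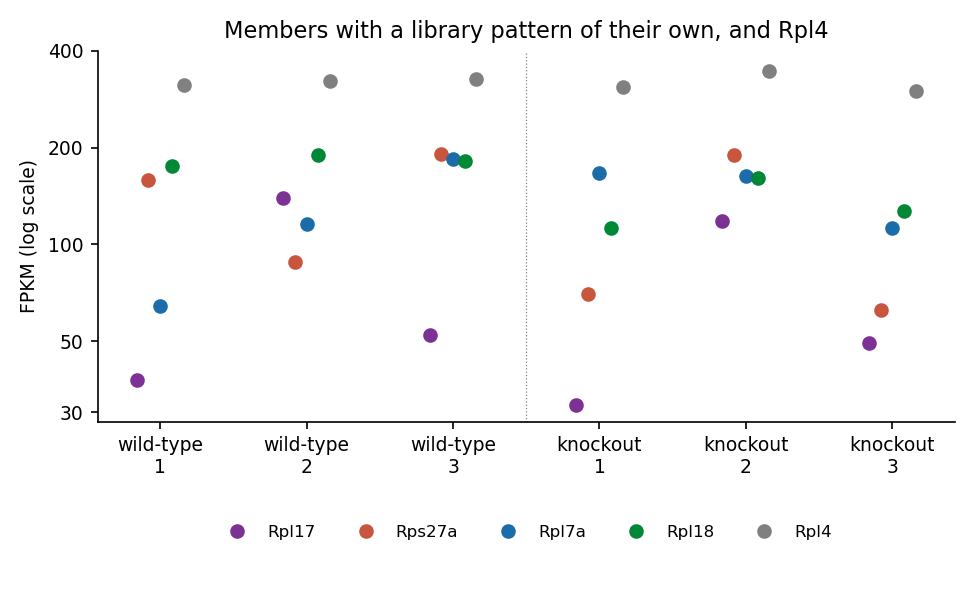
FPKM (log axis) of Rpl17, Rps27a, Rpl7a and Rpl18, with Rpl4 as a steady member, in each library. Rpl17 is highest in replicate 2 of both genotypes, Rps27a splits into libraries at 158 FPKM or more and at 87.9 FPKM or less, and Rpl18 is lower in all 3 knockout libraries.

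Some ribosomal protein genes fall outside the naming rule. Fau, which encodes a ubiquitin-like protein fused to a small subunit protein, had 239, 257 and 300.1 in the wild-type kidneys against 243, 286 and 234 FPKM in the knockout kidneys. It was highest in wild-type replicate 3, and its log2 fold change was -0.06 (SE 0.121). Rack1, a scaffold on the small subunit head, had 194, 194 and 209 in the wild-type kidneys against 190.0, 204 and 174 FPKM in the knockout kidneys, for a log2 fold change of -0.07 (SE 0.0938). Neither passed limma's test (adjusted p = 0.998 each).

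Translation factors and other genes whose mRNAs also carry a TOP did not move in 1 direction between libraries, and their list median stayed near 0. Their median distance from the mean was 0.03, 0.0054 and -0.0044 in wild-type replicates 1, 2 and 3 and -0.06, 0.06 and -0.05 in knockout replicates 1, 2 and 3. Eef1a1, the factor that brings tRNA to the ribosome, had 2149, 2063 and 1896 in the wild-type kidneys against 1885, 2008 and 2023 FPKM in the knockout kidneys. Wild-type replicate 3, the library where the ribosomal protein genes were highest, was the second lowest for Eef1a1. Tpt1, whose TOP mRNA encodes the translationally controlled tumour protein, had 1224, 1295 and 1541 in the wild-type kidneys against 1299, 1389 and 1086 FPKM in the knockout kidneys, with the highest and lowest libraries of the ribosomal protein genes. Eef2, the translocation factor, and Eif3l, an initiation factor subunit, were lowest in wild-type replicate 3 and spanned 1.29-fold and 1.36-fold. Of the 17 listed genes 0 passed and 11 lay below 0, with a median log2 fold change of -0.03, and those with the smallest p were Eif3f (-0.21, SE 0.0963) and Eef1d (-0.19, SE 0.108), each with a limma adjusted p of 0.973.

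Genes of the mitochondrial ribosome and of the respiratory chain moved between libraries in a like order. The 46 mitochondrial ribosomal protein genes lay at -0.05, -0.02 and 0.14 in wild-type and -0.02, 0.13 and -0.15 in knockout replicates 1, 2 and 3. The 45 tested genes of small nuclear-encoded respiratory subunits lay at -0.17, -0.03 and 0.21 in wild-type and -0.03, 0.18 and -0.21 in knockout replicates 1, 2 and 3. Both lists thus had the order of the cytosolic ribosomal protein genes at its ends, with wild-type replicate 3 on top and knockout replicate 3 at the bottom, and the respiratory list ran over a like range. Of these lists 0 of 46 and 0 of 45 genes passed between genotypes, with median log2 fold changes of -0.05 and -0.03. The smallest p fell on Mrps10 (0.14) and Mrpl21 (-0.13) and on Atp5d (-0.30) and Atp5k (0.20), on the log2 scale.

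**Figure D5:**
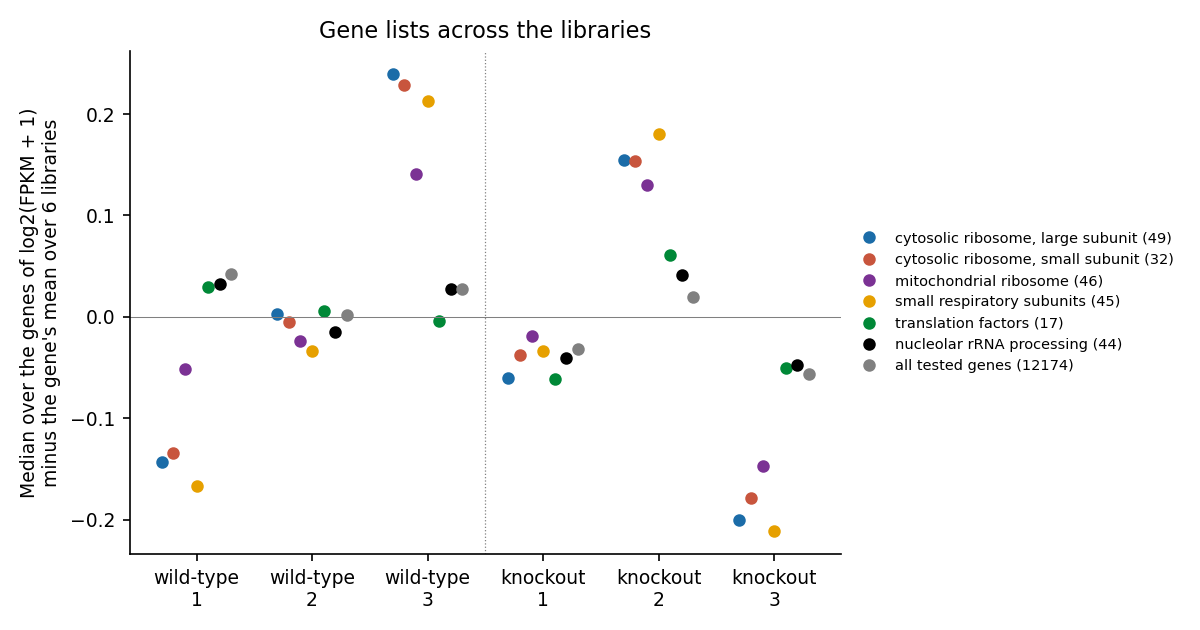
Median over each gene list of log2(FPKM + 1) minus the gene's mean over 6 libraries, by library, with the number of genes in brackets. Both cytosolic subunits, the mitochondrial ribosome and the small respiratory subunits are highest in wild-type replicate 3 and knockout replicate 2, whereas translation factors, nucleolar genes and all tested genes lie within 0.07 of 0.

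Genes that build ribosomes were also without a call. Of 44 nucleolar genes of ribosomal RNA processing 0 passed, 2 had an unadjusted p under 0.05 (both lower, against 4.21% of all tested genes) and 4 had groups apart, Nop2, Nop58, Gar1 and Bysl, all lower in the knockout (against 8.57%), so both counts lay near the background. Nop2, a methyltransferase of ribosomal RNA, had 10.4, 9.77 and 10.8 in the wild-type kidneys against 8.26, 8.71 and 8.32 FPKM in the knockout kidneys, for a log2 fold change of -0.26 (SE 0.0799) and a limma adjusted p of 0.888. Nop58, a core protein of the particles that guide methylation, had 11.6, 12.0 and 12.2 in the wild-type kidneys against 9.29, 10.3 and 10.2 FPKM in the knockout kidneys (-0.24 on the log2 scale, SE 0.0808, limma adjusted p = 0.914). Of 14 genes of ribosomal RNA transcription 0 passed, with a median log2 fold change of -0.08, and Ubtf, which opens the ribosomal DNA repeats, had -0.21 and Taf1c -0.30 (limma adjusted p = 0.973 each). Of 15 chaperones and importers of ribosomal proteins 0 passed, with a median of -0.01, and Pdcd2 and Ipo5 had log2 fold changes of -0.11 and 0.10.

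Factors that work beside HSC70 on nascent chains were looked at as a list of 11 genes, of which 0 passed and the median log2 fold change was -0.04. Dnajc2, the HSP40 partner that recruits HSP70 to the ribosome, had 25.8, 24.7 and 21.3 in the wild-type kidneys against 20.7, 21.1 and 20.6 FPKM in the knockout kidneys. Its knockout values were all lower, as for 8.57% of all tested genes, with a log2 fold change of -0.19 (SE 0.0928) and a limma adjusted p of 0.973. Srp54a, of the signal recognition particle that takes secretory chains from the ribosome to the endoplasmic reticulum, had 8.08, 7.69 and 6.58 in the wild-type kidneys against 10.9, 9.93 and 9.60 FPKM in the knockout kidneys. Its groups lay apart in the higher direction, as for 2.01% of all tested genes, with a log2 fold change of 0.40 (SE 0.0980) and a limma adjusted p of 0.866, so it did not pass. Srp54a has close copies that can share reads. Of the 24 tested regulators of TOP translation and ribosome supply 0 passed, 18 lay below 0 and 6 above, and the log2 fold changes ran from -0.51 to 0.15 with a median of -0.04.

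Markers of tubule and other cells moved between the libraries as well, and no marker in the table was at 0 in all 6. Of 15 immune cell markers 11 passed the filter, and their summed level was 176 to 238 FPKM in wild-type and 134 to 220 FPKM in knockout kidney. Their median distance from the mean was 0.02, -0.04 and 0.28 in wild-type and -0.20, 0.36 and -0.30 in knockout replicates 1, 2 and 3, highest in knockout replicate 2 and wild-type replicate 3 and lowest in knockout replicate 3. Endothelial markers, 11 of 11 tested, summed to 159 to 217 FPKM in wild-type and 119 to 155 FPKM in knockout kidney, and their median distance was 0.04, 0.10 and 0.43 in wild-type and -0.16, -0.02 and -0.31 in knockout replicates 1, 2 and 3, with all 11 below 0, 10 at an unadjusted p under 0.05 (against 4.21% of all tested genes in that direction), 7 apart and lower (against 8.57%) and 0 called. Red cell genes, 7 of 10 tested, summed to 77.9 to 80.4 FPKM in wild-type and 98.7 to 580.2 FPKM in knockout kidney, with knockout replicates 3 and 1 highest, 5 of 7 apart and higher (against 2.01% of all tested genes) and 0 called (4 globin genes without knockout replicate 2). Immediate early genes, 12 of 12 tested, summed to 79.9 to 516 FPKM in wild-type and 93.1 to 428 FPKM in knockout kidney, lowest in replicate 1 of both genotypes. The 10 proximal tubule markers summed to 41020.2, 41685 and 46766 in the wild-type kidneys against 37860.2, 46020.0 and 34677 FPKM in the knockout kidneys. This sum, which is weighted to the most abundant markers, was highest in wild-type replicate 3, next in knockout replicate 2 and lowest in knockout replicate 3. The ribosomal protein genes had that order too, but the markers taken as a list did not. Their median distance from the mean was 0.07, 0.02 and 0.0079 in wild-type and 0.18, -0.20 and -0.06 in knockout replicates 1, 2 and 3. It was thus highest in knockout replicate 1 and lowest in knockout replicate 2. The 9 thick limb and collecting duct markers summed to 1196, 1308 and 1607 in the wild-type kidneys against 1032, 1742 and 1428 FPKM. The part of these markers in the levels of the ribosomal protein genes was not tested.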

How the data were processed

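Kidney RNA of 3 wild-type and 3 Hspa8 knockout samples was sequenced after library preparation with a SMARTER mRNA kit, per the labels' protocols. The authors deposited a single table that holds FPKM for each gene in each library. The genome build was GRCm38 (mm10), per the submitters' processing notes. Aligner, quantifier, annotation, strand and the handling of reads that match several copies are not given in the sources used. Columns headed A8 were taken as the Hspa8 knockout samples and matched to titles by number. No label states that replicates are separate animals; p-values then measure only a spread between samples that may be technical.

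From these values log2(FPKM + 1) was computed. Fold changes are differences of group means on that scale and understate changes of low genes. Genes with a mean of at least 1 FPKM, 12174 of 34714, were fitted with limma 3.58.1 (R 4.3.3, trend) on all 6 libraries, with Benjamini-Hochberg adjustment over all 12174 and a threshold of 0.05. The fit was run on simulated data with independent noise for each gene, which lack the library pattern shared by the members. Low FPKM showed no whole-read steps, so depth, and with it any counting interval, is unknown. Members were named if called, by the 6 smallest p of each subunit, by the 4 highest and 4 lowest means and by textbook role, and 2 genes with the smallest p were named of each other list. Members named for their spread between libraries or their likeness to the family pattern, and Sphk2, Eef1a1, Tpt1, Eef2, Eif3l, Gar1 and Bysl and the further Diamond-Blackfan genes, were chosen after their values were seen. The members and lists were chosen with earlier results of these data known. There were 16 alternatives, among them other scalings, filters, a pseudocount of 0.1 and each library left out. Some results are not reported here.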

Additional observations from a re-analysis of the deposited data

How the results depend on the processing

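Under all 16 alternatives 0 ribosomal protein genes were called, with limma adjusted p for the lowest member between 0.668 and 1.0. Rpl18 stayed the member with an unadjusted p under 0.05 in all of them, joined by Rpl10 with quantiles equalised, by Rpl38, Rpl7a and Rps28 without wild-type replicate 3, and by Rpl10, Rpl22l1 and Rps27a without knockout replicate 2. The median log2 fold change of the members lay between -0.15 and 0.02 with 1 library left out and between -0.07 and -0.01 otherwise, and scaling moved the median of all genes by at most 0.05. In the other lists the count of called genes went from 0 to 4 without knockout replicate 2 (Hba-a1, Hba-a2, Hbb-bs and Hbb-bt, 5 over all genes); the cause was not tested. Rplp0 turned to 0.0092 with library sums equal, 0.0211 with library medians equal and 0.0117 with the coding length trend removed, and with 1 library left out it lay between -0.0897 and 0.0171 (the latter without knockout replicate 3). Rplp1 turned to 0.0172, 0.0291, 0.0105, 0.0013 and 0.0321 with library sums, medians, quantiles, sums without members and the top 20 genes, and the coding length trend, and leaving out 1 library gave -0.109 to 0.0962 (above 0 without wild-type replicate 3 and, at 0.0520, without the knockout replicate 3). Leaving out 1 library moved Rplp2 between -0.0100 (wild-type replicate 1) and 0.172, and Fau turned to 0.0316 without wild-type replicate 3; the cause was not tested. The deviations of same-numbered samples correlated at 0.307, -0.215 and -0.321, so by this measure not every number pairs its samples. Rpl17, however, was close in every same-numbered pair, at 37.8 and 31.6, 139 and 118, and 52.4 and 49.2 FPKM (wild-type first). Summed immediate early genes rose from replicate 1 through 2 to 3 in both genotypes. The wild-type sums were 79.9, 288 and 516, and the knockout sums 93.1, 362 and 428. Whether samples of 1 number were handled together was not tested. The fit with a replicate block called 0 members, with an adjusted p of 1.0 for Rpl18. Scaling and filters do not bear on a share of the summed FPKM and were not run for it.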
